A study of Homo sapiens with 16 samples.

Results

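Keratins are the intermediate filament proteins of epithelial cells, and 9 keratin genes and the keratin-associated protein gene KRTAP2-3 are described here across all knockdowns of the series. The 10 genes (KRT7, KRT8, KRT18, KRT19, KRT20, KRT23, KRT34, KRT80, KRT81 and KRTAP2-3) were matched by symbol among the 19315 gene identifiers listed in at least 1 of 6 deposited tables. They were selected on earlier results from the log2 fold changes of these same tables, so every value given for them describes these libraries and supports nothing further.

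The cells were HCT116, established from a human colorectal carcinoma, and U2OS, established from a human osteosarcoma. In each line, cells received a non-targeting small interfering RNA (siCtrl), an siRNA against MYBL1 (A-MYB), an siRNA against MYBL2 (B-MYB), or both siRNAs together (siMYBL1-siMYBL2, called the double knockdown here), for 48 hours. There were 2 libraries in each of 8 groups, biological replicates according to the series. The labels name no siRNA sequence and give no other difference between the groups of a line. MYBL1 and MYBL2 are related transcription factors, and MYBL2 acts with the MuvB complex on genes of late cell cycle. The series set out to study what both factors do in dividing cells.

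Each table compared 1 knockdown with siCtrl of the same line and gave, per gene, a base mean (the mean normalized count over the 4 libraries), a log2 fold change of knockdown over siCtrl with its standard error (SE), and a p adjusted over the whole table. No value per library was given, so the depth and the spread of single libraries are unknown here. In such bulk RNA, fewer cells of a kind and less RNA per cell cannot be told apart. A gene was called at an adjusted p under 0.05. The targeted genes were lower where targeted. For MYBL2 the authors' deposited table had 9.05% of control in HCT116 and 4.53% in U2OS after siMYBL2, and for MYBL1 31.4% and 50.7% after siMYBL1. Line markers fitted the labels by their summed levels, though not gene by gene. Of 12 epithelial markers, 8 were listed in HCT116 and 5 in U2OS, with summed siCtrl levels of 20569 and 1227 normalized counts. CDH17, LGALS4, GPA33 and VIL1 were listed in neither line. Of 12 mesenchymal and bone markers, 8 were listed in HCT116 and 10 in U2OS, and the same sums were 1216 and 78772. VIM, SPARC and COL1A1 were the highest of these in U2OS, and COL1A2 and TWIST1 were listed in HCT116 only. Of 10 blood cell markers, 4 were listed in HCT116 and 3 in U2OS, among them CD68, LYZ and ITGAM, with summed siCtrl levels of 66.4 and 80.8, and PTPRC and CD3E were listed in neither line.

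Keratin filaments are built from pairs of an acidic type I and a basic type II keratin. The type I genes lie together on chromosome 17 and the type II genes on chromosome 12, with KRT18 beside KRT8 as the known exception. KRT8 and KRT18 form the standard pair of simple epithelia, where KRT7, KRT19 and KRT20 mark particular ducts and the gut lining. KRT34 (type I) and KRT81 (type II) are hair keratins, and keratin-associated proteins such as KRTAP2-3 are cysteine-rich proteins that crosslink keratins in the hair shaft.

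Of the members, 4 (KRT8, KRT18, KRT80 and KRTAP2-3) were listed in all 6 tables. KRT34 was listed in none of the HCT116 tables, and KRT19 and KRT23 in none of the U2OS tables. KRT81 was missing after siMYBL2 and from the double knockdown in HCT116, KRT7 from the double knockdown in HCT116, and KRT20 from siMYBL2 in U2OS. Tables ended at base means from 4.46 to 40.4, so a gene that is missing is not shown to be silent.

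The upstream sequences of KRTAP2-3 and KRT34 are shown because these genes had the widest fold changes of the set. Both are the 250 bases before the RefSeq start (GRCh38.p14, reverse strand of chromosome 17, chr17:41060115-41060364 and chr17:41382307-41382556), written 5′ to 3′. Capitals mark matches on either strand to AACNG, a core of MYB sites, or to TATAAA, the TATA box.
KRTAP2-3: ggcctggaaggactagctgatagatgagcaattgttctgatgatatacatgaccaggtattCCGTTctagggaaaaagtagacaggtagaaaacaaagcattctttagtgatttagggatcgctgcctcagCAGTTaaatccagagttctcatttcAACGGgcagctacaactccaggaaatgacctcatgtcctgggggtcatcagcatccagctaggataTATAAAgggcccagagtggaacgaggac
KRT34: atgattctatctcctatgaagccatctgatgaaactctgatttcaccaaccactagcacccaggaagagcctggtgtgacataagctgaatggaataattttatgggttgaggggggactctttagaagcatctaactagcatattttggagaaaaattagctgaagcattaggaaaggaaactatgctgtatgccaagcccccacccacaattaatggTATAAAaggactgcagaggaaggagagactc
KRTAP2-3 held AACNG at 3 places, starting 189, 119 and 94 bases before its start, and KRT34 held none. Of 27305 RefSeq promoters, 70.6% held AACNG in a window of this length, so a match says little. TATAAA lay 28 bases before the start of KRTAP2-3 and 31 bases before that of KRT34, and 11.1% of promoters held it. Neither window held TTTGAA, the core of the cell cycle homology region (13.6% of promoters), or TGANTCA, the AP-1 motif (6.60%), on either strand. A promoter window was matched for 4 of the 10 members (KRT8, KRT20, KRT34 and KRTAP2-3). The KRT8 window held none of the motifs, and KRT20 held AACNG at 2 places, both on the opposite strand. That KRT8 window (chr12:52926470-52926719) lies inside the deposited span of the gene (52897187 to 52949954, reverse strand). The bases before the outer end of that span were not searched.

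The 2 lines carried different keratins. Levels per group were solved from the base mean and the fold change of a table. The 3 tables of a line gave 3 estimates of the same siCtrl libraries, whose highest was at the median gene 1.08 times the lowest in HCT116 and 1.05 times in U2OS. Per kilobase of transcript, the order in HCT116 siCtrl was KRT8 (19548 normalized counts per kilobase), KRT19 (17481), KRT18 (8430), KRT23 (147), KRTAP2-3 (106), KRT7 (27.1), KRT80 (22.9), KRT20 (21.3) and KRT81 (4.15). The first 3 stood far above the others. KRT7, KRT80 and KRT20 lay close together, and their order changed to KRT80 (22.8), KRT20 (21.3) and KRT7 (16.7) when the longest transcript gave the length. With that length KRT23 (86.9) also stood below KRTAP2-3 (106), and KRT19 stood at 9156, so the order of KRT23 and KRTAP2-3 depends on the length used.

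In U2OS siCtrl the order was KRT8 (23192 per kilobase), KRT18 (11332), KRT81 (6900), KRT80 (1677), KRTAP2-3 (327), KRT7 (213), KRT34 (25.6) and KRT20 (9.01). KRT8 ranked 27th and KRT18 89th of the genes by siCtrl level in the siMYBL1 table of this osteosarcoma line. KRT81, a hair keratin, stood at 11848 normalized counts in U2OS siCtrl and at 7.12 in HCT116, and KRT80 at 6503 and 88.6. The lines were normalized in separate tables, so these pairs are given side by side with no test. Reads of KRT81 cannot all be placed: 52.4% of the 31-base words of its annotated transcripts also occur in other genes, 42.5% in KRT86, which overlaps it on the opposite strand. KRT86 itself was listed in U2OS at 25.1 to 25.8 normalized counts in siCtrl.

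**Figure D1:**
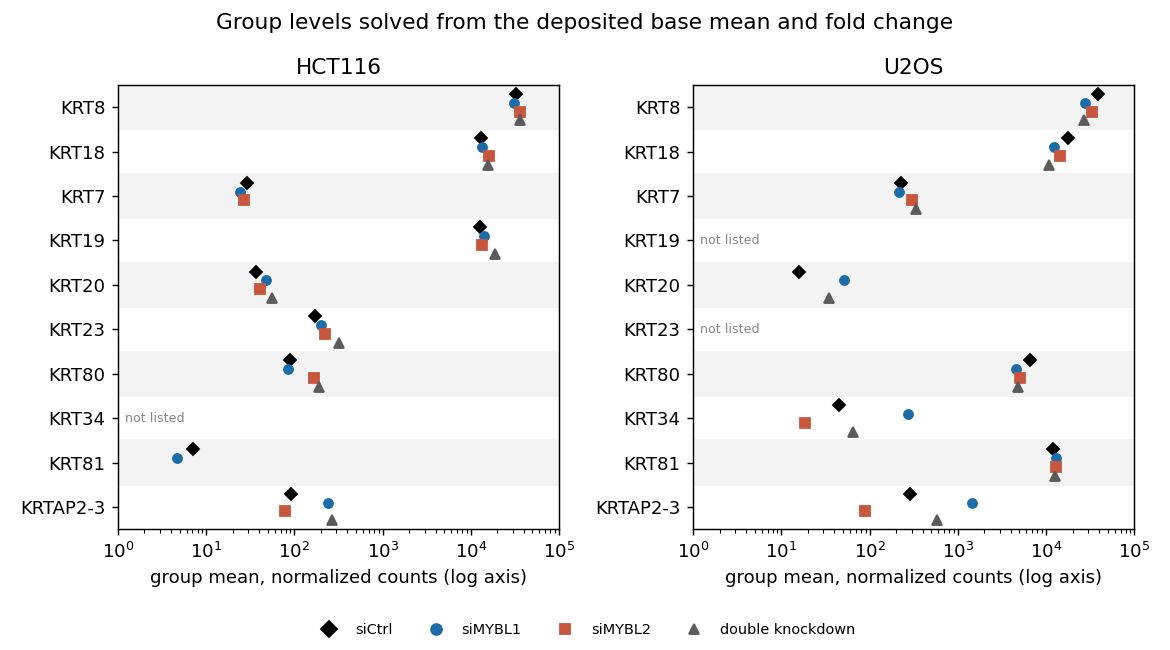
Group means of the 10 genes in HCT116 (left) and U2OS (right), in normalized counts on a log axis. Diamonds are siCtrl (the median of the estimates from up to 3 tables), circles siMYBL1, squares siMYBL2 and triangles the double knockdown, each the mean of 2 libraries as solved from the deposited values. KRT8 and KRT18 are high in both lines, KRT81 and KRT80 in U2OS, and KRTAP2-3 and KRT34 spread widest between the knockdowns of U2OS.

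KRTAP2-3 moved in opposite directions with the single siRNAs in U2OS. Its gene lies on chromosome 17 (hg38, positions 41059240 to 41060114, reverse strand, identifier ENSG00000212724). The level was 282 to 295 normalized counts in siCtrl, 1461 after siMYBL1, 89.5 after siMYBL2 and 587 in the double knockdown. The siMYBL1 level was above siCtrl, the siMYBL2 level below it, and the double knockdown lay between those of the single ones. In the authors' deposited table it rose by 2.37 (SE 0.25, adjusted p = 8.90e-18) on the log2 scale after siMYBL1. After siMYBL2 it fell to 30.3% of control, a log2 fold change of -1.72 (SE 0.31, adjusted p = 5.02e-06) per the authors' deposited table. With both siRNAs it rose by 1.04 (SE 0.28, adjusted p = 0.00344) per the authors' deposited table.

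The difference between these effects was tested with both log2 fold changes and their SEs, with a 2-sided normal p that was Benjamini-Hochberg adjusted over all genes in both tables. Comparisons of 1 line share siCtrl, which makes this SE too large. For KRTAP2-3 in U2OS, the double knockdown minus siMYBL1 was -1.34 (SE 0.37, adjusted p = 0.0262), and the double knockdown minus siMYBL2 was 2.76 (SE 0.42, adjusted p = 2.55e-08). It was the single member called in either difference, of 8 and 7 tested, beside 1.54% and 1.05% of all genes called. The contrast of siMYBL1 with siMYBL2 was added after the values were seen, and gave 4.10 (SE 0.40, adjusted p = 4.41e-21) for KRTAP2-3, a 17.1-fold difference; with KRT34, 2 of 7 members were called there, both higher after siMYBL1, beside 2.92% of all genes in either direction and 2.22% higher. Its single-knockdown log2 fold changes summed to 0.65, and the double knockdown stood 0.38 above that sum, for which no test was made.

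In HCT116, KRTAP2-3 stood at 90.5 to 97.9 normalized counts in siCtrl, 242 after siMYBL1, 79.2 after siMYBL2 and 271 in the double knockdown. Both groups that received siMYBL1 were above siCtrl, and siMYBL2 alone was near it. With both siRNAs the authors' deposited table had a rise of 1.47 (SE 0.33, adjusted p = 0.000402). After siMYBL1 alone the authors' deposited table had 1.42 (SE 0.41, adjusted p = 0.145), which was not called although the size was like that of the double knockdown, and after siMYBL2 -0.22 (SE 0.43, adjusted p = 0.999). The difference of the double knockdown from siMYBL2 was 1.69 (SE 0.54, adjusted p = 0.215), and was called with the variance multiplied by 0.5, as if siCtrl cancelled (adjusted p = 0.00128). None of 7 members was called between the HCT116 double knockdown and siMYBL1 (1.28% of all genes, 1 member at an unadjusted p under 0.05) or siMYBL2 (0.645%, 2 members), and none of 8 between siMYBL1 and siMYBL2 (0.493%, 1 member), by the normal test. Between the lines, U2OS minus HCT116, the response of KRTAP2-3 differed by 0.96 after siMYBL1 (SE 0.48, adjusted p = 1), by -1.50 after siMYBL2 (SE 0.53, adjusted p = 0.466) and by -0.43 with both siRNAs (SE 0.43, adjusted p = 0.903), none of which was called. By this test 0 of 7 members differed between the lines after siMYBL1 (0.0594% of all genes, 2 members at an unadjusted p under 0.05) and 0 of 5 after siMYBL2 (0.215%, 3 members).

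The counts of KRTAP2-3 are uncertain in their source. Of the 31-base words of its transcript, 43.1% occur in KRTAP2-4, 38.9% in KRTAP2-1 and 36.3% in KRTAP2-2, which are near copies in the same stretch of chromosome 17. These 3 genes were not listed in any table. Among 11622 genes listed in all 6 tables, the nearest to KRTAP2-3 by Euclidean distance over the 6 log2 fold changes included ZBED2 (1.81) and EMP1 (1.84). For KRT18 the nearest was CPT1A (0.15) and for KRT80 SEPSECS-AS1 (0.38). The distance grows with the size of the fold changes, whose range was 4.10 for KRTAP2-3, 1.02 for KRT18 and 1.52 for KRT80, so distances are not compared between these genes. KRT34 and KRT75, not listed in all tables, could not enter.

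KRT34, the type I hair keratin, showed the same order of groups in U2OS at a lower level. Its gene lies at positions 41377669 to 41382306 of chromosome 17 (hg38, reverse strand, ENSG00000131737). It stood at 44.0 to 46.1 normalized counts in siCtrl, 276 after siMYBL1, 18.7 after siMYBL2 and 65.0 in the double knockdown. After siMYBL1 it rose by 2.65 (SE 0.45, adjusted p = 1.70e-06) per the authors' deposited table. Neither other group was called: the authors' deposited table had siMYBL2 at -1.31 (SE 0.66, adjusted p = 0.337) and the double knockdown at 0.54 (SE 0.53, adjusted p = 0.627). The double knockdown lay 2.11 below siMYBL1 on the log2 scale, a difference of -2.11 (SE 0.70, adjusted p = 0.117) that was called with the variance multiplied by 0.5 (adjusted p = 0.000864). The added contrast of siMYBL1 with siMYBL2 gave 3.95 (SE 0.80, adjusted p = 0.000135). KRT33B, KRT31 and KRT33A, its neighbours, hold 12.6%, 12.0% and 11.0% of its 31-base words and were not listed.

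KRT81, the other hair keratin of the set, did not follow KRT34. It stood at 11647 to 12232 normalized counts in U2OS siCtrl and between 12714 and 13004 in the 3 knockdowns. The log2 fold changes per the authors' deposited table were 0.16 (SE 0.18), 0.09 (SE 0.22) and 0.10 (SE 0.22) after siMYBL1, siMYBL2 and both, with 95% intervals that together ran from -0.34 to 0.54. KRT81 in HCT116 had a base mean too low to say more than its interval, -3.50 to 2.29 after siMYBL1.

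**Figure D2:**
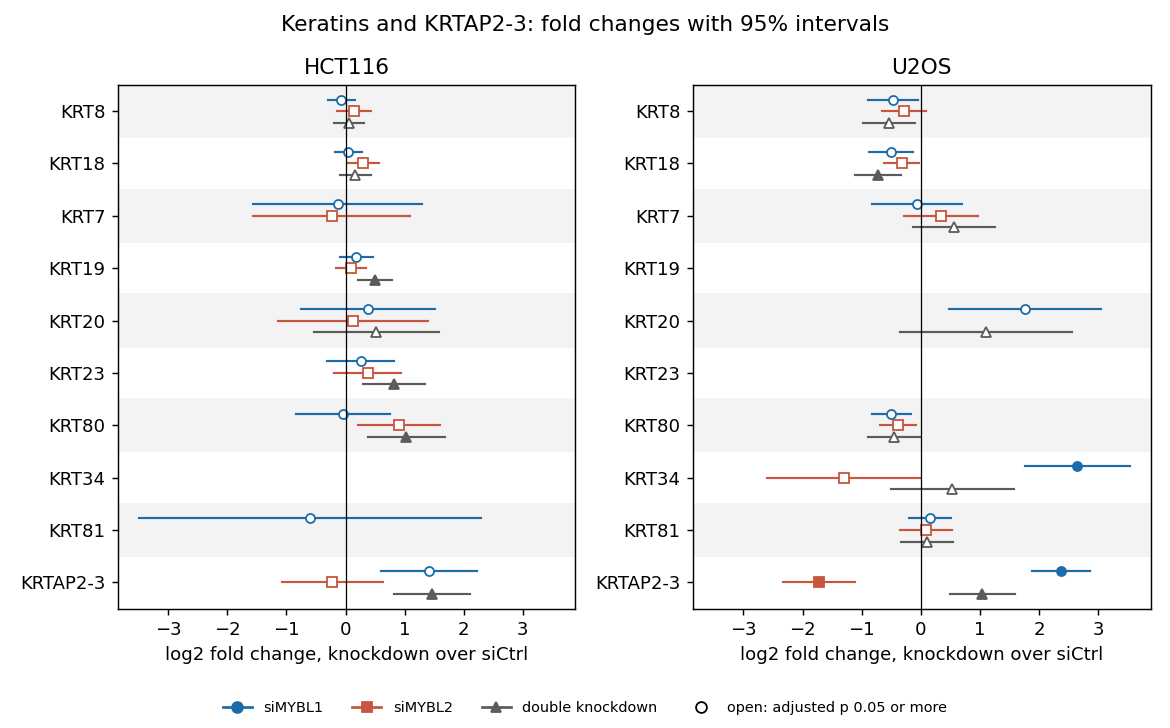
Log2 fold changes of knockdown over siCtrl for the 10 genes in HCT116 (left) and U2OS (right), with 95% intervals from the deposited SE. Circles are siMYBL1, squares siMYBL2 and triangles the double knockdown, each from 2 libraries against 2, and filled symbols have an adjusted p under 0.05. In U2OS, KRTAP2-3 lies at 2.37, -1.72 and 1.04, and KRT34 in the same order. A gene without symbols was not listed.

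The simple epithelial pair KRT8 and KRT18 had values below siCtrl in every U2OS knockdown, and 1 of the 6 was called. KRT18 stood at 17358 to 18277 normalized counts in siCtrl, 12214 after siMYBL1, 14596 after siMYBL2 and 10719 in the double knockdown, so each knockdown was below siCtrl. It fell in the double knockdown to 60.6% of control, -0.72 (SE 0.20, adjusted p = 0.00380) per the authors' deposited table. The single knockdowns had -0.51 (SE 0.19, adjusted p = 0.0908) and -0.32 (SE 0.15, adjusted p = 0.276) per the authors' deposited table and were not called. KRT8, its partner, ran from 38576 to 40346 in siCtrl and stood at 27721, 33109 and 26986 after siMYBL1, siMYBL2 and both. Its values per the authors' deposited table, -0.48 (SE 0.22), -0.29 (SE 0.19) and -0.54 (SE 0.23), were not called (adjusted p = 0.206, 0.581 and 0.107).

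In HCT116 the same pair stayed within narrow intervals. KRT8 had -0.07 (SE 0.12), 0.15 (SE 0.14) and 0.06 (SE 0.13), and KRT18 0.05 (SE 0.11), 0.29 (SE 0.14) and 0.17 (SE 0.13), for siMYBL1, siMYBL2 and both per the authors' deposited table. Between the lines, the response of KRT18 to both siRNAs differed by -0.89 (U2OS minus HCT116, SE 0.24, adjusted p = 0.0207), and that of KRT8 by -0.60 (SE 0.26, adjusted p = 0.378). KRT8 and KRT18 overlap by 1084 bases on opposite strands, and 18.9% and 28.1% of their 31-base words occur in other genes, among them many processed pseudogenes, so reads of these copies could have been counted with them or apart.

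KRT80, a type II keratin, responded differently to the double knockdown in the 2 lines. In HCT116 it stood at 87.0 to 94.1 normalized counts in siCtrl, 84.4 after siMYBL1, 166 after siMYBL2 and 192 in the double knockdown. It rose in the double knockdown by 1.03 (SE 0.33, adjusted p = 0.0325) per the authors' deposited table, and siMYBL2 alone, at 0.90 (SE 0.35, adjusted p = 0.299), was not called. In U2OS it stood at 6392 to 6711 in siCtrl and at 4525, 5117 and 4760 after siMYBL1, siMYBL2 and both. These values, -0.50 (SE 0.17, adjusted p = 0.0522), -0.39 (SE 0.15, adjusted p = 0.140) and -0.45 (SE 0.22, adjusted p = 0.202) per the authors' deposited table, were not called. The siMYBL1 value was called when p was adjusted over genes at base mean 100 or more (adjusted p = 0.0450) or when fold changes were centred on the median gene (adjusted p = 0.0389). Its double knockdown response differed between the lines by -1.48 (U2OS minus HCT116, SE 0.40, adjusted p = 0.0243), and after siMYBL2 by -1.30 (SE 0.38, adjusted p = 0.155). After siMYBL1 the difference was -0.46 (SE 0.44), and neither single siRNA was called. KRT18 and KRT80 were the 2 of 5 members called in the double knockdown comparison of lines, beside 1.27% of all genes.

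KRT19 and KRT23, type I keratins listed in HCT116 only among these tables, were highest in the double knockdown. KRT19 stood at 12475 to 13498 normalized counts in siCtrl, 14157 after siMYBL1, 13559 after siMYBL2 and 19057 in the double knockdown. It rose there by 0.50 (SE 0.15, adjusted p = 0.0154) per the authors' deposited table. KRT23 stood at 167 to 181 in siCtrl, 199 and 224 after the single siRNAs and 320 in the double knockdown, a rise of 0.82 (SE 0.27, adjusted p = 0.0391) per the authors' deposited table. Neither was called in a single knockdown, and neither difference of the double from a single knockdown was called (for KRT19, 0.41 above siMYBL2 with SE 0.20). At an adjusted p under 0.01, KRT19, KRT23 and KRT80 were no longer called in HCT116.

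KRT20, of the gut lining, and KRT7 were not called in any table. KRT20 was low, at 36.4 to 39.3 normalized counts in HCT116 siCtrl and 15.1 to 16.2 in U2OS. Its largest value was 1.77 (SE 0.66, adjusted p = 0.0918) after siMYBL1 in U2OS per the authors' deposited table. KRT7 stood at 222 to 240 in U2OS siCtrl, 213 after siMYBL1, 303 after siMYBL2 and 339 in the double knockdown, where the authors' deposited table had 0.56 (SE 0.35, adjusted p = 0.357).

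Counted by table, 0 of 9 members were called after siMYBL1 in HCT116 by the authors' DESeq2 test (0.260% of all genes were called), where 1 member, KRTAP2-3, had an unadjusted p under 0.05. After siMYBL2 in HCT116 0 of 8 were called (1.13% of all genes), with 2 at an unadjusted p under 0.05, KRT18 and KRT80. In the HCT116 double knockdown 4 of 7 were called, all higher (6.95% of all genes in either direction and 2.82% higher). After siMYBL1 in U2OS 2 of 8 were called, both higher (5.71% and 3.44%). After siMYBL2 1 of 7 was called, lower (5.20% and 3.51%). In the U2OS double knockdown 2 of 8 were called, 1 higher and 1 lower (12.6%, with 6.55% higher and 6.06% lower). The median log2 fold change of the members was 0.52 in the HCT116 double knockdown and -0.32 after siMYBL2 in U2OS, where the median of all genes was -0.02 and 0.01. Since these contrasts were known when the genes were named, nothing is read from the counts.

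The rest of the family was taken by symbol, as all other genes named KRT or KRTAP with a number. Of 149 such protein-coding genes in GENCODE release 29, members included, 22 were listed in at least 1 table, all on chromosome 12 or 17. None of the 11 KRTAP genes on chromosome 11 and the 49 on chromosome 21 was listed, and of 34 on chromosome 17 KRTAP2-3 and KRTAP3-1 were. Among the 12 family genes that are not members, KRT15, KRT17, KRT14 and KRT75 were called somewhere, and KRT10, the partner of KRT1 in skin, was called nowhere.

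KRT14, KRT16 and KRT75 had values below siCtrl after siMYBL2 in U2OS, as KRTAP2-3 did. KRT75, a type II keratin of the hair follicle, stood at 854 to 897 normalized counts in siCtrl, 1323 after siMYBL1, 280 after siMYBL2 and 740 in the double knockdown. It fell after siMYBL2 to 31.2% of control, -1.68 (SE 0.24, adjusted p = 4.28e-10) per the authors' deposited table, and siMYBL1 had 0.63 (SE 0.27, adjusted p = 0.176). KRT14, the basal keratin of stratified epithelia, fell after siMYBL2 by 1.55 on the log2 scale (SE 0.43, adjusted p = 0.0116) per the authors' deposited table, from 154 to 163 normalized counts in siCtrl to 52.6. KRT16, made in stressed skin, had -1.43 (SE 0.51, adjusted p = 0.0833) per the authors' deposited table and was not called. Of 7 listed family genes outside the members, 0 were higher and 2 lower in that comparison, where 5.20% of all genes were called and 3.51% were lower.

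KRT17, a type I keratin of skin appendages, was abundant in U2OS and differed from these. It stood at 6233 to 6506 normalized counts in siCtrl, 12290 after siMYBL1, 6067 after siMYBL2 and 16498 in the double knockdown. It rose by 0.98 (SE 0.24, adjusted p = 0.00204) after siMYBL1 and by 1.38 (SE 0.45, adjusted p = 0.0242) in the double knockdown per the authors' deposited table. In the added contrast of siMYBL1 with siMYBL2 in U2OS, KRT75 differed by 2.31 (SE 0.36, adjusted p = 9.59e-08), KRT14 by 2.56 (SE 0.58, adjusted p = 0.000967) and KRT17 by 1.08 (SE 0.34, adjusted p = 0.0463; 0.0566 with fold changes centred on the median gene). All 3 were higher after siMYBL1, as were KRT34 and KRTAP2-3, which makes 5 of 13 family genes tested and none lower, beside 2.92% of all genes called and 2.22% higher. KRT34 and KRTAP2-3 were chosen with these values known, and the contrast was added after the values were seen, so nothing is read from this count. KRT75 was also called between the double knockdown and siMYBL2 (1.45, SE 0.33, adjusted p = 0.00168). KRT14, KRT16 and KRT17 share sequence with each other and with pseudogenes, at 33.0%, 31.8% and 22.5% of their 31-base words, and KRT75 at 4.27%.

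**Figure D3:**
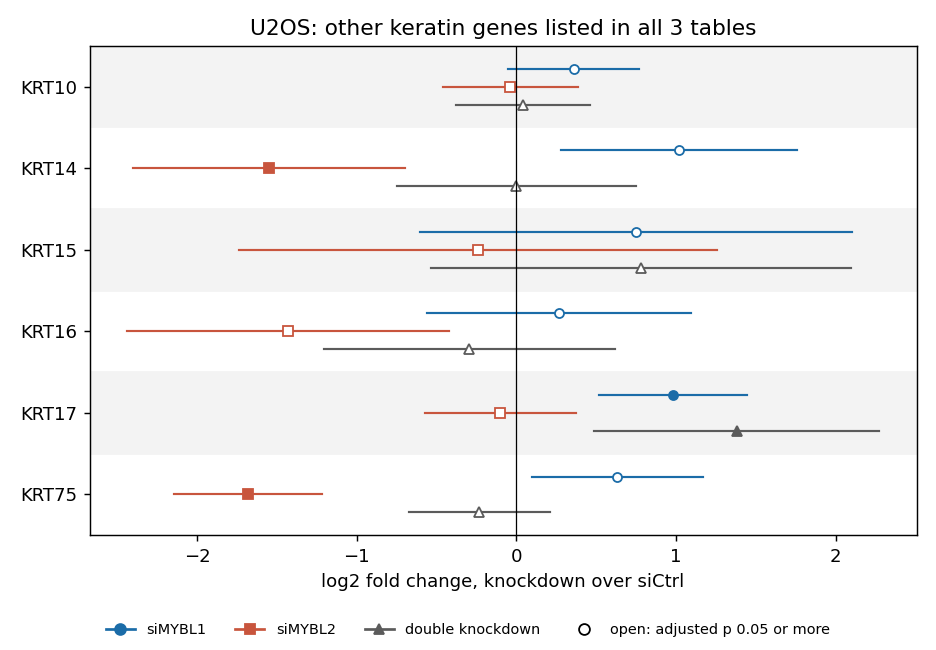
Log2 fold changes of knockdown over siCtrl in U2OS, with 95% intervals, for the 6 other keratin genes listed in all 3 tables of that line. Circles are siMYBL1, squares siMYBL2 and triangles the double knockdown, and filled symbols have an adjusted p under 0.05. KRT14 and KRT75 are called lower after siMYBL2 (-1.55 and -1.68), and KRT17 higher after siMYBL1 and in the double knockdown (0.98 and 1.38).

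KRT15, a basal keratin, was the family gene outside the members called in HCT116. It stood at 212 to 236 normalized counts in siCtrl, 280 and 295 after the single siRNAs and 546 in the double knockdown, a rise of 1.21 (SE 0.25, adjusted p = 0.000108) per the authors' deposited table. With it, 5 of 10 listed family genes were higher and 0 lower in the HCT116 double knockdown, where 2.82% of all genes were higher; 4 of the 5 are members, chosen with these values known.

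In U2OS, the called KRTAP2-3 gene and the called type I keratin genes KRT34, KRT14 and KRT17 were spread over the chromosome 17 block. KRTAP2-3 and KRT34 start 322 kilobases apart, with 26 annotated keratin or KRTAP genes between them, of which 0 were listed. KRT14 and KRT17 start 527 and 565 kilobases from KRTAP2-3. Over the 970 kilobases of the chromosome 17 block in U2OS, 3 of 8 listed family genes were higher after siMYBL1 (KRTAP2-3, KRT34 and KRT17) and 2 of 7 lower after siMYBL2 (KRTAP2-3 and KRT14), beside 3.44% higher and 3.51% lower of all genes. KRTAP2-3 and KRT34 were chosen with these values known, so nothing is read from the counts. The 2 other listed genes of the block, KRT10-AS1 and 1 without a symbol, were not called in any of the 3 knockdowns.

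**Figure D4:**
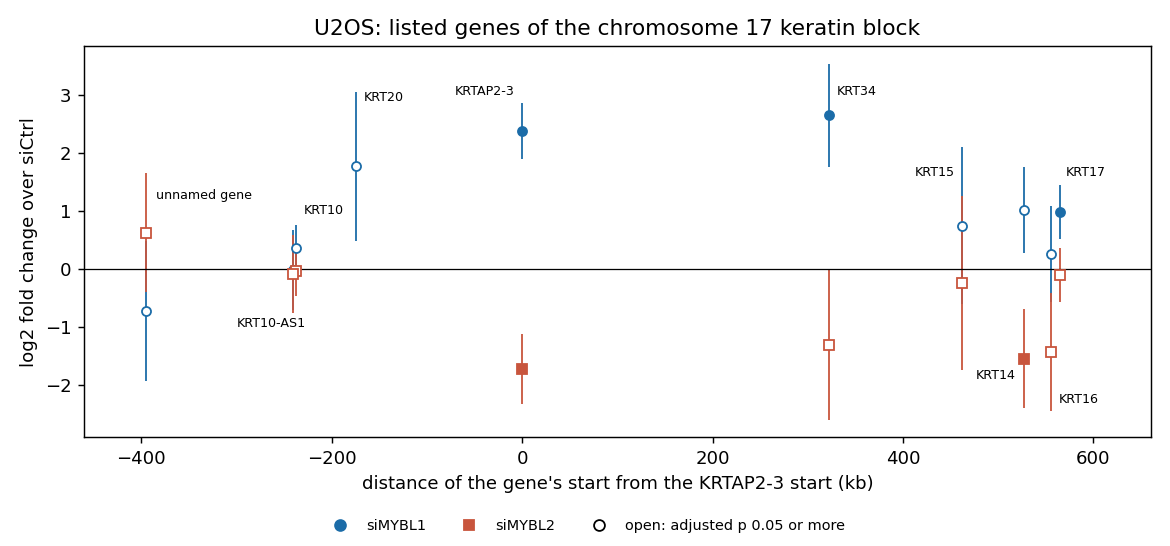
Log2 fold change over siCtrl in U2OS, with 95% intervals, against the distance of each gene's start from the KRTAP2-3 start in kilobases, for listed genes of the chromosome 17 keratin block. Circles are siMYBL1 and squares siMYBL2, and filled symbols have an adjusted p under 0.05. KRTAP2-3 at 0 and KRT34 at 322 kilobases are above 2 after siMYBL1, and KRTAP2-3 and KRT14 are called below 0 after siMYBL2.

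Genes that anchor or accompany keratins were counted from lists not picked for how they moved, though drawn up with earlier results known. For 26 genes of desmosomes and of the linkers that tie keratin filaments to junctions, the HCT116 double knockdown had 6 higher and 1 lower of 20 listed, beside 6.95% of all genes called. Among them ITGB4, the hemidesmosome integrin, rose by 0.91 (SE 0.18, adjusted p = 5.29e-05), PPL, periplakin, by 0.80 (SE 0.18, adjusted p = 0.000329) and PLEC, plectin, by 0.50 (SE 0.16, adjusted p = 0.0311) per the authors' deposited table, while PKP4 fell by 0.54 (SE 0.16, adjusted p = 0.0144). In the U2OS double knockdown 5 were higher and 2 lower of 18 (12.6% of all genes called), and after siMYBL1 in U2OS 3 were higher and 1 lower of 16 (5.71%). After siMYBL2 in U2OS 0 of 16 were called by the authors' DESeq2 test (5.20% of all genes), with 2 at an unadjusted p under 0.05. The list's median log2 fold change was 0.29 in the HCT116 and 0.19 in the U2OS double knockdown, beside -0.02 and 0.01 over all genes. COL17A1, a hemidesmosome collagen, rose by 1.79 (SE 0.49, adjusted p = 0.00829) after siMYBL1 and by 1.77 (SE 0.52, adjusted p = 0.00894) in the double knockdown of U2OS per the authors' deposited table. Its base means there were low, at 79.0 and 72.5. DSC2, a desmosome gene, was the 1 lower after siMYBL1 in U2OS, at -1.06 (SE 0.30, adjusted p = 0.0114) per the authors' deposited table. The single siRNAs in HCT116 called 1 gene each, PLEC higher after siMYBL1 (0.48, SE 0.12, adjusted p = 0.0460) and EVPL, envoplakin, higher after siMYBL2 (0.76, SE 0.17, adjusted p = 0.00118) per the authors' deposited table. These were 1 of 20 and 1 of 19 listed, beside 0.260% and 1.13% of all genes called.

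Of 35 genes of the cornified envelope, its proteases and hair, 5 of 9 listed were higher in the HCT116 double knockdown and 3 of 11 in that of U2OS, with 0 lower, beside 2.82% and 6.55% higher of all genes. These were KLK6, KLK7, KLK10, S100A14 and SFN in HCT116, and KLK6, KLK10 and S100A16 in U2OS. IVL, FLG and the SPRR genes of the list were not listed in either line, so the counts do not cover them. The list's median log2 fold changes were 0.63 and 0.74, beside -0.02 and 0.01 over all genes. The kallikrein protease KLK10 rose by 1.05 (SE 0.24, adjusted p = 0.000466) in HCT116 and by 1.32 (SE 0.47, adjusted p = 0.0402) in U2OS per the authors' deposited table. After siMYBL2 in U2OS 2 of 10 were lower, beside 3.51% lower and 5.20% called of all genes, while the list's median log2 fold change was 0.18. The authors' deposited table had TGM1, the transglutaminase of keratinocytes, at -1.83 (SE 0.49, adjusted p = 0.00626) and SFN, the 14-3-3 protein of epithelia, at -0.67 (SE 0.16, adjusted p = 0.00184). Of 34 transcription factors that bear on epithelial and keratin genes, 0 of 25 and 0 of 23 were called after siMYBL1 and siMYBL2 in HCT116 by the authors' DESeq2 test, with 2 at an unadjusted p under 0.05 in each. Of all genes, only 0.260% and 1.13% were called there, so these counts say little about the list. In U2OS after siMYBL2, KLF5 fell by 0.74 (SE 0.24, adjusted p = 0.0461) and RUNX1 by 0.68 (SE 0.20, adjusted p = 0.0164), and LEF1 rose by 0.90 (SE 0.27, adjusted p = 0.0226), per the authors' deposited table. These were the 1 higher and 2 lower of 16 listed, beside 5.20% of all genes called. SNAI1 and SNAI2, repressors of epithelial genes, rose in U2OS after siMYBL1, by 0.94 (SE 0.29, adjusted p = 0.0278) and 1.37 (SE 0.37, adjusted p = 0.00771), per the authors' deposited table. They were the 2 called of 15 listed, beside 5.71% of all genes. In the U2OS double knockdown LEF1 rose by 1.11 (SE 0.25, adjusted p = 0.000220) and GRHL3, at a base mean of 24.6, by 2.82 (SE 0.84, adjusted p = 0.00998) per the authors' deposited table. That was 2 of 20 listed, beside 12.6% of all genes called. In the HCT116 double knockdown RUNX1 rose by 0.92 (SE 0.24, adjusted p = 0.00426) and OVOL1 by 0.71 (SE 0.23, adjusted p = 0.0401) per the authors' deposited table, which makes 2 of 21 listed, near the 6.95% of all genes called in that table.

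Of 12 other cytoplasmic intermediate filament genes, 4 were listed after siMYBL2 and 5 in the double knockdown of U2OS. VIM, the main filament of mesenchymal cells, was the 1 called in each. It fell in U2OS after siMYBL2 by 0.46 (SE 0.15, adjusted p = 0.0376) and with both siRNAs by 0.71 (SE 0.17, adjusted p = 0.000510) per the authors' deposited table. After siMYBL2 in U2OS, 5.20% of all genes were called and 3.51% were lower. NES, nestin, the 1 called of 3 listed, fell by 0.74 (SE 0.24, adjusted p = 0.0358) in the HCT116 double knockdown per the authors' deposited table. In the same HCT116 comparison 1 of 8 listed epithelial markers was higher (CDH1, 0.59, SE 0.19, adjusted p = 0.0300) and 1 lower (ESRP1, -0.78, SE 0.16, adjusted p = 6.84e-05) per the authors' deposited table. In the U2OS double knockdown 5 of 10 mesenchymal and bone markers were higher and 1, VIM, lower. Of 5 epithelial markers, 0 were called there by the authors' DESeq2 test, and 0 had an unadjusted p under 0.05. Over all genes, 12.6% were called in that comparison (6.55% higher and 6.06% lower), and 6.95% in the HCT116 double knockdown. These markers' part in the keratin values was not tested.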

How the data were processed

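RNA sequencing of 16 libraries was analysed from 6 tables of the authors' own comparisons. Cutadapt 4.4, Salmon 1.10.1, DESeq2 1.40 and hg38 are named in the submitters' processing notes, with no settings; which annotation and strand setting were used is not given in the sources read. Per the file headers, base means were deposited as a signal (normalized counts averaged across 4 libraries). Fold changes and SEs were deposited in log2 units. The Wald score the authors deposited was checked to be their ratio, and their adjusted p-value to follow Benjamini-Hochberg over each table's genes.

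Group levels were solved from base mean and fold change. Differences of log2 fold changes used a normal p (scipy 1.17.1). The calculation was run on simulated fold changes of siMYBL1 in both lines, drawn independently with the deposited SEs taken as exact. That run does not cover differences within a line, which share siCtrl, or the error of SEs from 2 libraries per group. Lengths, 31-base words and the annotated family used GENCODE 29, promoters RefSeq (GRCh38.p14); gene positions are those of the tables. Named genes were the members, called family genes, up to 4 called genes per list and table with the smallest adjusted p, and the 3 nearest profiles, of which some are not reported here. The members and lists were chosen with earlier results of these data known. Library depth is unknown. Alternatives covered the genes adjusted over, centring, the threshold, the error of differences and transcript length.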

Additional observations from a re-analysis of the deposited data

Results flagged for a closer look

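In the double knockdown, the response of 2 genes differed between the lines by the test of the difference itself. KRT18 stood at -0.72 in U2OS and 0.17 in HCT116, a difference of -0.89 (SE 0.24, adjusted p = 0.0207). KRT80 stood at -0.45 in U2OS and 1.03 in HCT116, a difference of -1.48 (SE 0.40, adjusted p = 0.0243). Both genes were chosen with the fold changes of these libraries known, so the differences describe these libraries and support nothing further. Neither gene was called between the lines after a single siRNA by the same test. KRT18 differed by -0.56 (SE 0.22, adjusted p = 0.614) after siMYBL1 and by -0.62 (SE 0.21, adjusted p = 0.352) after siMYBL2. KRT80 differed by -0.46 (SE 0.44) and -1.30 (SE 0.38, adjusted p = 0.155). The lines were fitted in separate tables and share no library. The siCtrl level of KRT80 was 88.6 normalized counts in HCT116 and 6503 in U2OS.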

How the results depend on the processing

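No paired analysis was possible because the tables hold no values per library, and for the same reason no library could be left out. In the HCT116 double knockdown, the 4 members and 5 family genes called became 2 and 3 when p was adjusted over genes listed in all 6 tables, which leaves out members missing from a table, and 1 and 2 at an adjusted p under 0.01. By the same restriction to shared genes, the 2 members and 3 family genes called after siMYBL1 in U2OS became 1 and 1, and the 3 family genes called after siMYBL2 became 1. With the variance of a difference within a line multiplied by 0.5, the members called went from 0 to 1 for the HCT116 double knockdown against siMYBL2, from 1 to 2 for the U2OS double knockdown against siMYBL1 and against siMYBL2, and from 0 to 1 for siMYBL1 against siMYBL2 in HCT116. For siMYBL1 against siMYBL2 in U2OS it was 1 in place of 2 over genes at base mean 100 or more, which leaves out KRT34. Centring moved none of 21 counts by more than 1.5 times. No fold change reversed, but only centring could change one. The medians it subtracted ran from -0.03 to 0.02 on the log2 scale, so this shows little. Depth per library is unknown, and the low base means of KRT7, KRT20, KRT34 and KRT81 in HCT116 or U2OS limit what their intervals show.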
